A study of Mus musculus with 6 samples.

Results

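The genes described here are the 9 receptors and enzymes of the endocannabinoid system, Cnr1, Cnr2, Faah, Mgll, Dagla, Daglb, Napepld, Abhd6 and Abhd12, taken by gene symbol from the 23282 genes counted in each library. Each symbol was found once. All animals were wild-type C57BL/6J male mice, 8 to 10 weeks old. In 3 libraries they were fed a normal chow diet (NCD) and in 3 a high-fat diet (HFD, 60 kcal% fat), each for 10 days. RNA of forebrain hemispheres, without the olfactory bulbs and cerebellum, was sequenced from the 3′ end of poly(A) transcripts (QuantSeq). The question was whether short-term high-fat feeding changed the mRNA of these genes.

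Endocannabinoids are lipid messengers that neurons make on demand and that act mostly backward across the synapse. Diacylglycerol lipases produce 2-arachidonoylglycerol, which monoacylglycerol lipase and the ABHD hydrolases break down, while a phospholipase D encoded by Napepld contributes to anandamide, which Faah hydrolyses. Both messengers bind the CB1 receptor, which dampens transmitter release and is known for promoting food intake. The CB2 receptor is mainly a receptor of immune cells.

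In the HFD group, 0 of the 8 members that could be tested differed from the NCD group at an adjusted p under 0.05, and 0 at an unadjusted p under 0.05 (quasi-likelihood F-test of edgeR, p-values adjusted by Benjamini-Hochberg over the 13771 genes tested). DESeq2 and limma after quantile normalization also gave 0 members at both thresholds. Over all genes tested, 3.68% had an unadjusted p under 0.05 and 0% an adjusted one, and 0 of 8 members is near that background. The size of the differences was bounded as follows. All 8 members had a 95% interval of the fold change that stayed within 1.5-fold in either direction, which held for 62.5% of all genes tested. With 1 library left out, between 5 and 8 members kept such an interval. The 5 came without HFD replicate 1, where the intervals of Faah, Dagla and Daglb reached below 1.5-fold lower. The log2 fold changes of the members, HFD over NCD, lay between -0.26 and 0.10 with a median of -0.04, against a median of -0.0025 over all genes tested. Of the 8, 7 were below 0, as were 50.6% of all genes. Among the 7, Abhd12 was next to 0, at -1.6e-05.

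**Figure D1:**
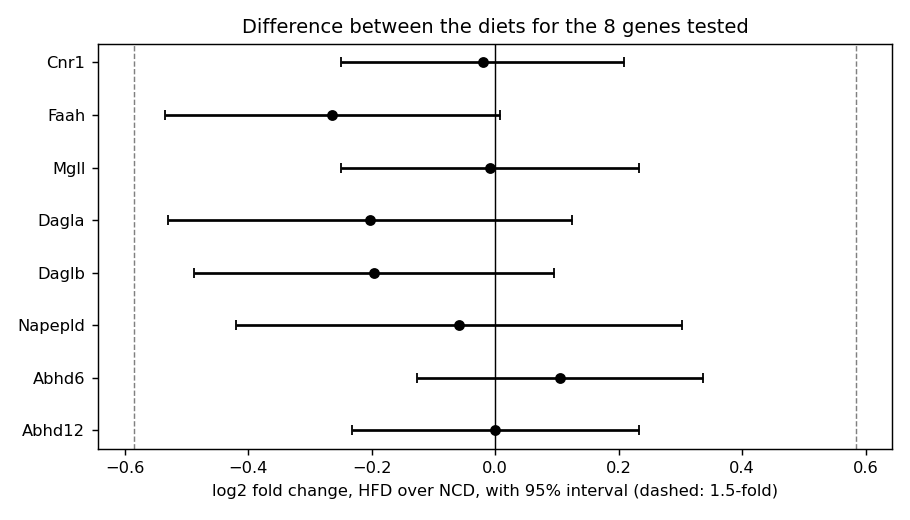
Log2 fold change, HFD over NCD, of the 8 members tested (x axis), with 95% intervals as bars and dashed lines at 1.5-fold. Every interval includes 0 and stays within the dashed lines, and the interval of Faah ends at 0.0076 above 0.

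The counts of a library summed to between 6842785 and 9689372, and levels are expressed in CPM, counts scaled to library size by the TMM method. Nothing in the labels says that the libraries of a diet came from separate animals, so p-values measure the spread between these libraries. Libraries of 1 diet differed by more than sampling noise, with chi-square values of 3.55 to 16.7 per degree of freedom over the pairs. The 5 neuronal markers summed to between 4744 and 5017 CPM in every library, but single markers were less even. HFD replicate 3 had the lowest Syt1 (2114 CPM) and the highest Snap25 (1552 CPM). NCD replicate 3 had the highest Syt1 (2668 CPM) and the lowest Snap25 (1202 CPM). HFD replicate 3 stood apart in markers of other tissues: 5 pituitary markers summed to 1268 CPM there and to between 4.18 and 13.2 CPM in the other libraries, and 5 midbrain markers to 8.8 CPM against 24.6 to 37.3 CPM. The 5 liver markers summed to 24.3, 46.8 and 9.59 CPM in the NCD libraries, against 6.48, 10.2 and 5.22 CPM in the HFD libraries, and the 5 blood markers to between 421 and 519 CPM on the NCD and between 544 and 825 CPM on the HFD. The fold changes without HFD replicate 3, and without each other library, are in the plot of fold changes with libraries left out.

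As the reads come from the 3′ ends of transcripts, the annotated ends of 5 members are shown, for the complete protein-coding transcript that reaches furthest 3′ in GENCODE vM21 on GRCm38. These are the main receptor, the main hydrolase of 2-arachidonoylglycerol and the 3 members with the lowest fold changes. Each line holds the last 30 bases, 5′ to 3′ on the strand of the gene, with the polyadenylation signal AATAAA in capitals where it occurs.
Cnr1, chr4:33948802-33948831, plus strand: aaaaattctagattatcatgaaaaacataa
Mgll, chr6:88828331-88828360, plus strand: accgtAATAAAaaccacgtgcttttggaga
Faah, chr4:115996669-115996698, minus strand: aagatcataAATAAAataatttatgctgat
Dagla, chr19:10245265-10245294, minus strand: agctgtgtataaactgaatgtagaagcaca
Daglb, chr5:143505913-143505942, plus strand: gaaaacaggacgcacttctactgagctacc

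The signal, searched on the strand of the gene, was present in this window in 5 of the 9 members, the others being Cnr2, Napepld and Abhd6, and in 51.1% of 21732 protein-coding genes. Its absence in Cnr1, Dagla, Daglb and Abhd12 says only that these letters are not in the last 30 annotated bases. The end of Daglb is shared with another gene. The last 500 bases of its transcript lie within exon sequence of Rac1 on the opposite strand, with 2309 exon bases shared in all. Rac1, a small GTPase, had counts between 2371 and 3303 in a library and Daglb between 180 and 318. The use of strand in the counting is not given in the sources used here, so part of the Daglb count may belong to Rac1. For Mgll, 167 exon bases overlap the antisense gene Gm26588, and 0 of these lie in its last 500 bases. The other 7 members share no exon bases with another annotated gene. The transcripts of the 9 members shared runs of at most 11 bases with the 31 most frequent read sequences of the libraries.

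**Figure D2:**
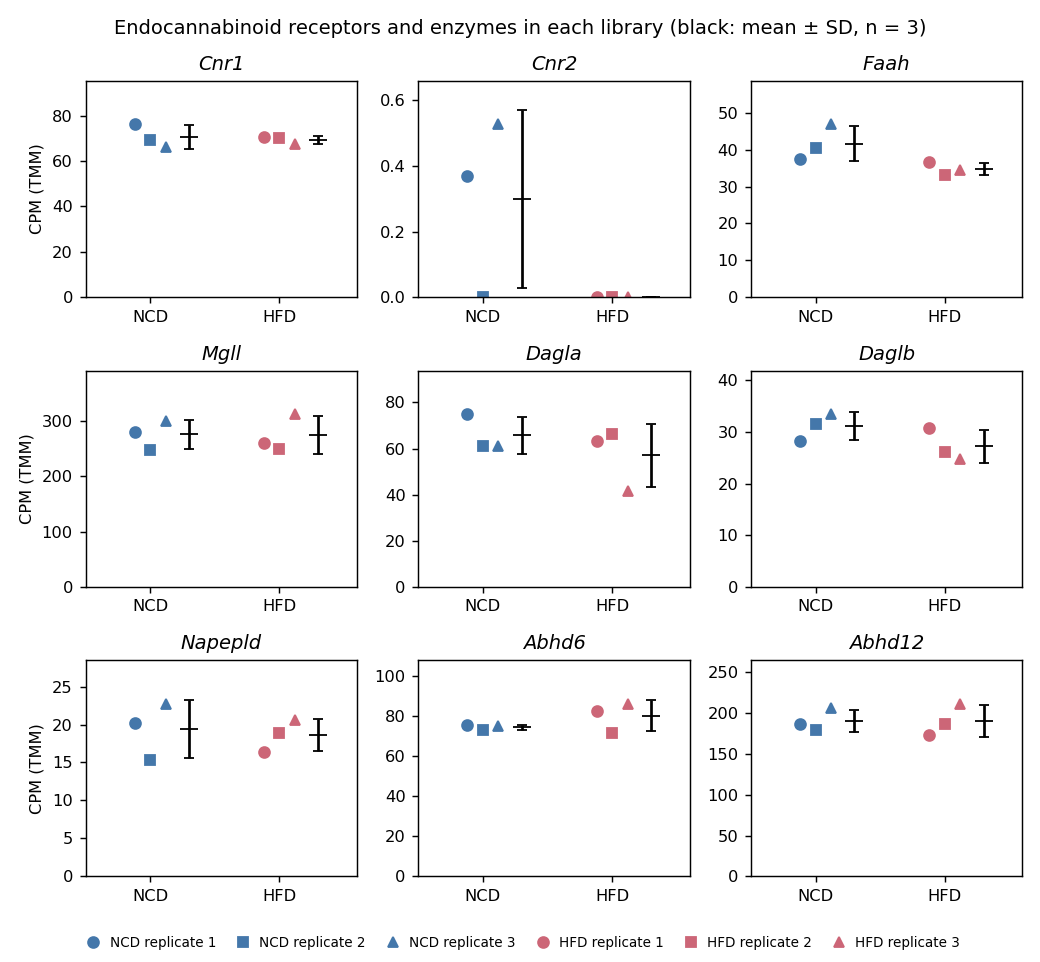
CPM of each member in each library (y axis from 0, its own scale per gene), in blue for the NCD and red for the HFD, with the mean ± SD of 3 libraries in black. The groups overlap for all members except Faah, whose 3 HFD libraries lie below the 3 NCD libraries, and Cnr2 has no read in 4 of the 6 libraries.

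Cnr1, the gene of the CB1 receptor, spans chromosome 4 from 33924593 to 33948831 (GRCm38). Its transcript has 2 exons and a 3′ untranslated region of 3796 bases. Cnr1 was read 618, 643 and 627 times in the NCD libraries, or 76.3, 69.4 and 66.1 CPM. In the HFD libraries it was read 492, 643 and 491 times, or 70.8, 70.3 and 67.5 CPM. All HFD values lay between the highest and lowest NCD values. The means were 70.6 ± 5.22 CPM (SD, n = 3) for the NCD group and 69.5 ± 1.78 CPM (SD, n = 3) for the HFD group, with a log2 fold change of -0.02 (edgeR, SE 0.11, adjusted p = 0.993). The 95% interval of the difference ran from -15.9% to 15.5%. Cnr1 was the steadiest of the members. Its highest library was 1.15-fold above its lowest, and 4.08% of the genes tested had a smaller spread over the 6 libraries (root mean square deviation of log2 CPM, 0.0651 for Cnr1). Among the 3803 genes of similar mean CPM, 6.84% had a smaller spread.

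The genes whose log2 CPM followed that of Cnr1 most closely over the 6 libraries were Acsl4, Cpne3 and Scn2a1. They differed from it by 0.017, 0.0212 and 0.0235 on the log2 scale (root mean square difference after centring each gene on its mean). Acsl4 encodes an acyl-CoA synthetase that prefers arachidonate, Cpne3 a copine and Scn2a1 a voltage-gated sodium channel. They were chosen from 13771 genes by this likeness, which carries no test.

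Cnr2, for the CB2 receptor, lies on chromosome 4 from 135895394 to 135920207. It was read 3, 0 and 5 times in the NCD libraries and 0 times in each HFD library. A count of 3, taken as the floor, is between 0.316 and 0.432 CPM in these libraries. NCD replicate 3, with 5 reads, was above it. The mean of the NCD libraries was 0.299 CPM, and as the means of both diets were under the floor no fold change is given. The 0 reads of the HFD libraries allow up to 0.432 CPM in the shallowest of them, counting error only. Microglia and macrophages, for which CB2 is often described, were represented, as all 7 of their markers were tested and summed to between 327 and 357 CPM. Of 4 B cell markers, another cell type known for CB2, 3 had a row and none exceeded 3 counts in any library.

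Dagla and Daglb encode the diacylglycerol lipases that release 2-arachidonoylglycerol, the alpha form being the main one at adult synapses. Dagla lies on chromosome 19 from 10245265 to 10304877 and has 20 exons. It had 75.0, 61.1 and 61.2 CPM in the NCD libraries, against 63.5, 66.1 and 41.4 CPM in the HFD libraries. HFD replicates 1 and 2 lay within the NCD range, and HFD replicate 3 lay below every other library, with 301 reads. The log2 fold change was -0.20 (edgeR, SE 0.15, unadjusted p = 0.208, adjusted p = 0.979), with an interval of the difference from -30.8% to 9.03%. It was -0.02 without HFD replicate 3 and -0.33 without HFD replicate 2. HFD replicate 3 also had the lowest sum of 4 GABAergic markers, at 570 CPM against 682 to 798 CPM in the other libraries. The 4 markers listed for CCK interneurons, which are GABAergic cells known for CB1, had their highest sum there, at 778 CPM against 579 to 660 CPM. Cck alone made up 748 CPM of that sum, so the sum mostly follows Cck. Vip was highest in NCD replicate 2. Slc17a8 was highest in HFD replicate 3, at 2.89 CPM against 2.70 CPM in NCD replicate 2, and Htr3a in NCD replicate 3. These rankings rest on few reads, 9 to 25 per library for Slc17a8 and 12 to 25 for Htr3a. The part of these marker differences, and of the pituitary and midbrain markers of HFD replicate 3 given above, in the low Dagla count was not tested. As the tissue is a mixture, fewer cells that express a gene and less RNA per cell cannot be told apart.

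Daglb lies on chromosome 5 from 143464584 to 143505942. It had 28.3, 31.6 and 33.5 CPM in the NCD libraries, against 30.8, 26.1 and 24.7 CPM in the HFD libraries. HFD replicates 2 and 3 lay below the NCD libraries and HFD replicate 1 lay among them. The log2 fold change of -0.20 (edgeR, SE 0.14, unadjusted p = 0.173, adjusted p = 0.979) did not exceed the replicate spread, and the difference ranged from -28.7% to 6.82%. The ratio of Daglb to Dagla reads, which does not depend on the scaling of libraries, was 0.377, 0.518 and 0.548 in the NCD libraries, against 0.486, 0.396 and 0.599 in the HFD libraries. The diets overlapped, and the mean log2 ratio was -1.07 ± 0.29 (SD, n = 3) on the NCD and -1.04 ± 0.30 (SD, n = 3) on the HFD (two-sided exact permutation test, p = 0.9, and 0.9 after adjustment over 3 ratios). With 3 libraries against 3, such a test cannot give a p under 0.1.

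Mgll encodes monoacylglycerol lipase, the main hydrolase of 2-arachidonoylglycerol in brain, and lies on chromosome 6 from 88724412 to 88828360. It had between 1816 and 2853 reads per library, so counting error was at most 2.35% of the value. Mgll had 281, 248 and 301 CPM in the NCD libraries, against 261, 250.5 and 313 CPM in the HFD libraries. The highest and second lowest values were both from HFD libraries. The means of 277 ± 26.4 CPM (SD, n = 3) and 275 ± 33.6 CPM (SD, n = 3) gave a log2 fold change of -0.0086 (edgeR, SE 0.11, adjusted p = 0.997) and an interval of the difference from -15.9% to 17.5%.

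Abhd6, on chromosome 14 from 8002902 to 8056763, encodes a membrane-bound hydrolase that takes a smaller part in breaking down 2-arachidonoylglycerol. Its NCD libraries were close together, at 75.3, 72.8 and 75.0 CPM, while the HFD libraries had 82.6, 71.4 and 86.2 CPM. HFD replicates 1 and 3 lay above and HFD replicate 2 below all NCD libraries. With TMM scaling, Abhd6 was the 1 member with a positive log2 fold change, at 0.10 (edgeR, SE 0.11, unadjusted p = 0.353, adjusted p = 0.979). Its difference ranged from -8.43% to 26.3%, and the log2 fold change was 0.05 without HFD replicate 3 and 0.18 without HFD replicate 2.

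Abhd12, on chromosome 2 from 150832493 to 150904741, encodes a hydrolase best known for lysophosphatidylserine. It had 186, 179 and 206 CPM in the NCD libraries, against 173, 187 and 212 CPM in the HFD libraries, and both the lowest and the highest values were from HFD libraries. The means were 190.3 ± 13.9 CPM (SD, n = 3) and 190.4 ± 19.7 CPM (SD, n = 3), and the difference ranged from -14.9% to 17.5%. In edgeR the log2 fold change was -1.6e-05 (adjusted p = 0.99988). Over the alternative settings it kept this sign in 8 and was positive in 8.

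Faah encodes fatty acid amide hydrolase, which inactivates anandamide, and lies on chromosome 4 from 115967145 to 116017926. This span covers all its annotated transcripts. The 3′ end of the coding transcript shown above, at 115996669, lies inside it. It was read 303, 376 and 445 times in the NCD libraries, against 254, 304 and 250 times in the HFD libraries. These were 37.4, 40.6 and 46.9 CPM in the NCD libraries, against 36.6, 33.2 and 34.4 CPM in the HFD libraries. All 3 HFD libraries lay below the 3 NCD libraries, but HFD replicate 1 and NCD replicate 1 were almost equal. Faah was the only member tested whose groups did not overlap. Over all genes tested, the groups did not overlap for 8.81%, with the HFD lower for 4.49%. The means were 41.6 ± 4.83 CPM (SD, n = 3) and 34.7 ± 1.70 CPM (SD, n = 3). The log2 fold change was -0.26 (SE 0.13), or a difference of -16.7% with an interval from -31.0% to 0.528%. It did not pass the test (unadjusted p = 0.056, adjusted p = 0.979, edgeR), and the adjusted p was between 0.839 and 0.99986 with 1 library left out. The unadjusted p was 0.0393 without NCD replicate 1, and the log2 fold change was nearest 0 without NCD replicate 3, at -0.17.

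Napepld, on chromosome 5 from 21662901 to 21701396, encodes the phospholipase D that releases anandamide from its membrane precursor. With 114 to 216 reads per library it was the least deeply read member tested, with a counting error of up to 9.37% of the value. It had 20.2, 15.3 and 22.8 CPM in the NCD libraries, against 16.4, 18.9 and 20.6 CPM in the HFD libraries, with all HFD values inside the NCD range. The log2 fold change was -0.06 (edgeR, SE 0.17, adjusted p = 0.985), with an interval of the difference from -25.2% to 23.3%. The ratio of Faah to Napepld reads was 1.84, 2.64 and 2.06 in the NCD libraries, against 2.22, 1.76 and 1.66 in the HFD libraries. These overlapped between the diets, with a mean log2 ratio of 1.11 ± 0.27 (SD, n = 3) and 0.90 ± 0.22 (SD, n = 3), a difference of -0.21 (two-sided exact permutation test, p = 0.4, and 0.9 after adjustment over 3 ratios).

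HFD replicate 3 differed from the other libraries in opposite directions for different enzymes, a pattern seen in these values and not tested. Of the 6 libraries it had the highest CPM for the hydrolases Mgll, Abhd6 and Abhd12 and the lowest for the lipases Dagla and Daglb. On the log2 scale it lay 0.19, 0.16 and 0.16 above the mean of all libraries for these hydrolases. The part of its pituitary and midbrain markers in these values was not tested. For Dagla its difference from that mean was -0.54 and for Daglb -0.23. The hydrolase Faah, at -0.14, and the synthesis enzyme Napepld, at 0.13, went the other way in this library. Its extremes were not confined to these enzymes. Of the other pathway genes tested, described below, it was also lowest for Gnao1 (950.6 CPM against 1197 to 1307 CPM), Gprasp1, Abhd4, Gnai3 and Pparg. It was highest for Plaat3, Fabp3, Fabp5 and Naaa. How many of all genes tested were highest or lowest in this library was not counted. The ratio of Mgll to Dagla reads was 7.56 in this library. In the other libraries it was 3.74, 4.06 and 4.91 on the NCD, compared with 4.11 and 3.79 on the HFD. The diets did not differ in this ratio beyond their spread, with a mean log2 ratio of 2.07 ± 0.20 (SD, n = 3) on the NCD and 2.29 ± 0.54 (SD, n = 3) on the HFD (two-sided exact permutation test, p = 0.6, and 0.9 after adjustment over 3 ratios). Without HFD replicate 3 the difference in the log2 ratio changed from 0.22 to -0.09. In the NCD group, replicate 3 had the highest CPM of all libraries for Faah, Daglb and Napepld. Dagla varied most, with a 1.81-fold range over the libraries.

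**Figure D3:**
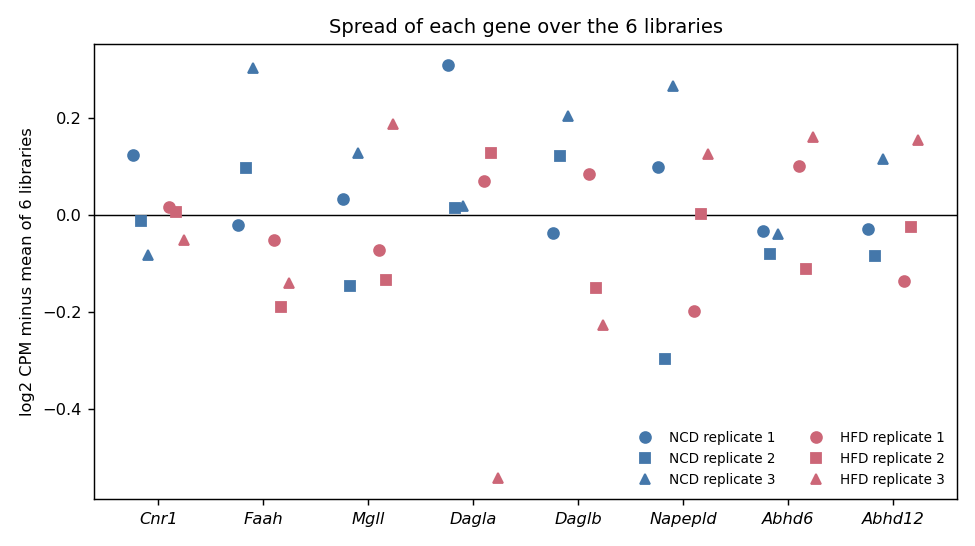
Log2 CPM of each member in each library minus its mean over the 6 libraries (y axis), with a symbol per replicate and a colour per diet. HFD replicate 3 (red triangles) is highest for Mgll, Abhd6 and Abhd12 and lowest for Dagla, at -0.54, and Daglb, while the points of Cnr1 lie between -0.08 and 0.12.

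**Figure D4:**
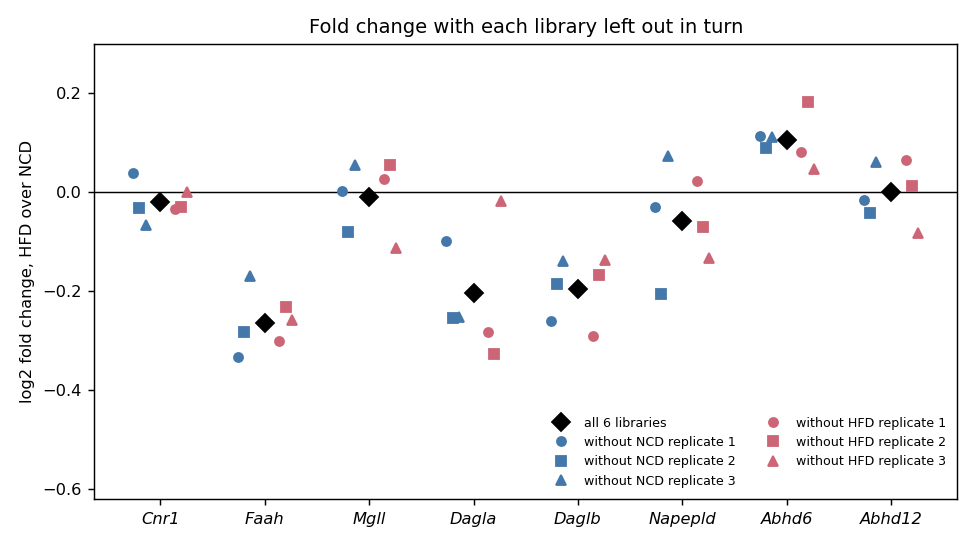
Log2 fold change, HFD over NCD, of the 8 members (y axis) with all 6 libraries (black diamonds) and with each library left out in turn (coloured symbols). The values of Faah, Dagla and Daglb stay below 0 and those of Abhd6 above 0, that of Dagla moves to -0.02 without HFD replicate 3, and those of Cnr1, Mgll, Napepld and Abhd12 fall on both sides of 0.

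The members sit in a wider set of genes that make, carry, bind or respond to endocannabinoids. Of 32 such genes, 23 could be tested, and 0 of these had an unadjusted or an adjusted p under 0.05 (edgeR, with 0 also at an unadjusted p under 0.05 in DESeq2 and in limma). Of the 23, 10 had a positive and 13 a negative log2 fold change, with a median of -0.03, and 0 had groups that did not overlap, against 8.81% of all genes tested. Among the 9 synthesis genes tested the log2 fold changes ran from -0.11 to 0.43. Pla2g4e, a calcium-dependent N-acyltransferase that makes the precursor of anandamide, had the highest value of the set, as it was read 12, 36 and 12 times in the NCD libraries, against 29, 20 and 20 times in the HFD libraries. In CPM, NCD replicate 2 lay among the HFD libraries and the other NCD libraries below them. The log2 fold change of Pla2g4e was 0.43 (edgeR, SE 0.45, adjusted p = 0.979). Leaving out NCD replicate 2 gave 1.13 (edgeR, unadjusted p = 0.0349, adjusted p = 0.97).

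The lowest value of the set belonged to Ppara, a nuclear receptor for fatty acids and their ethanolamides. It had 9.13, 7.98 and 8.74 CPM in the NCD libraries, against 6.62, 8.09 and 8.11 CPM in the HFD libraries, which overlapped, with a log2 fold change of -0.18 (edgeR, SE 0.21, adjusted p = 0.979). The 7 partners of CB1, which hold the Gi and Go alpha subunits through which it signals and the proteins that bind or sort it, were all tested and lay between -0.12 and 0.05. The 3 fatty acid binding proteins, which carry anandamide inside cells, lay between -0.10 and -0.03. Of the 6 other receptors, Ppara and Pparg were tested, while Gpr55, Gpr18, Gpr119 and Trpv1 had too few counts. Of the 4 genes of breakdown and oxidation, Naaa and Ptgs2 were tested, with log2 fold changes of 0.20 and 0.26.

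**Figure D5:**
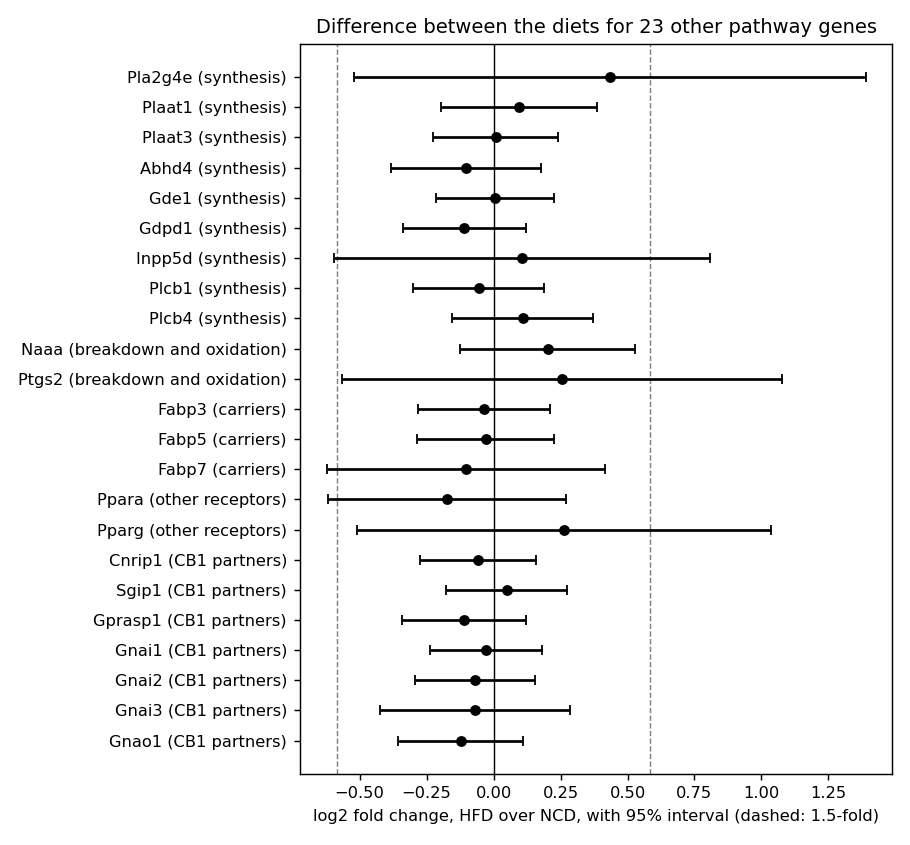
Log2 fold change, HFD over NCD, of the 23 other pathway genes tested (x axis), with 95% intervals as bars, dashed lines at 1.5-fold and the role of each gene in brackets. Every interval includes 0, and the widest are those of the lowly counted genes such as Pla2g4e, at 0.43.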

How the data were processed

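RNA of forebrain hemispheres was sequenced in 3 NCD and 3 HFD libraries. According to the study's methods and the submitters' processing notes, reads were trimmed, aligned to mm10 with Bowtie2 and counted from unique and multiple alignments with bedtools. The authors deposited whole-number read counts per gene without normalization. Tool versions, the gene annotation and the use of strand are not given in the sources used here. Without molecular identifiers, floors cover counting error only.

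Counts were fitted in R 4.3.3 with edgeR 4.0.16 over all 6 libraries (filterByExpr at its minimum of 10 counts and 15 in total, TMM, glmQLFit and glmQLFTest, no covariate), with p-values adjusted over the 13771 genes that passed. Of the 23282 rows, 44 repeat an earlier symbol and were kept apart. Standard errors are the log2 fold change over the square root of F, and intervals use the fit's t distribution. Ratios of reads used 0.5 added counts and an exact permutation test. DESeq2 1.42.0, limma 3.58.1 and Python 3.11.15 were also used, and the fits were tested on simulated counts. As alternatives, the replicate number was added as a block, single libraries were dropped, DESeq2 or limma (on quantile-normalized log2(CPM + 1)) replaced the test, and the scaling, the robustness of the dispersion and the filter were varied. The filter was removed or set to 10 counts everywhere, or genes holding over 2% of a library were dropped.

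The members and gene lists were chosen with earlier results of these data known. Named are all members, pathway genes with an unadjusted p under 0.05 or the highest or lowest fold change, and the 3 genes nearest to Cnr1. Others, such as Rac1, were added with their values known. Positions are those of GENCODE vM21 (GRCm38). In the deposited tables, 0 columns belonged to other samples.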

Additional observations from a re-analysis of the deposited data

How the results depend on the processing

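When 1 library was dropped, the log2 fold change ran from -0.066 to 0.039 for Cnr1, from -0.11 to 0.056 for Mgll, from -0.21 to 0.074 for Napepld and from -0.082 to 0.065 for Abhd12. It crossed 0 for these 4 members. It ran from -0.33 to -0.17 for Faah, from -0.33 to -0.02 for Dagla, from -0.29 to -0.14 for Daglb and from 0.05 to 0.18 for Abhd6. The difference in the log2 ratio ran from -0.13 to 0.18 for Daglb to Dagla, from -0.093 to 0.41 for Mgll to Dagla and from -0.34 to -0.06 for Faah to Napepld. Between 5 and 8 members kept an interval within 1.5-fold, and 0 to 1 members (Faah) and 0 to 1 pathway genes (Pla2g4e, without NCD replicate 2) had an unadjusted p under 0.05. Over all genes, 0 to 3 had an adjusted p under 0.05, and at an unadjusted p under 0.05 with at least 1.5-fold 60 to 119 were higher and 101 to 145 lower, against 73 and 103 with all libraries. Of the other settings, library size alone brought 1 member, Faah, to an unadjusted p of 0.0442. The log2 fold change of Abhd12, next to 0, was 0.0014 with DESeq2, 0.0014 with relative log expression factors, 0.0021 with upper-quartile factors, 0.00044 without a filter and 0.00079 without genes over 2% of counts. DESeq2 called 2 genes of the whole table, and the fit without a filter called 23, with 156 higher and 240 lower at the unadjusted thresholds, and the cause was not tested. The lowest adjusted p of any member over all settings was 0.839. Same-numbered libraries of both diets deviated from their group means with correlations of -0.03, 0.05 and -0.06 for replicates 1, 2 and 3. NCD replicates 1 and 3 correlated best with another number. Correlations this near 0, over 3 libraries per diet, cannot decide whether same-numbered libraries were prepared together. In the study's read quality reports, replicates 1 and 2 each had the same GC percentage on both diets. Replicate 3 had the highest GC percentage within each diet, and also the highest share of the most frequent read. Any link of these values to a shared preparation was not tested. With the replicate block 0 members and 0 genes were called, and the log2 ratio differences were 0.03, 0.22 and -0.21, with the sign-flip test unable to give a p under 0.25. A count of 3 was between 0.316 and 0.432 CPM at these depths, and Cnr2, with at most 5 reads in a library, was not tested.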
